A study of Mus musculus with 9 samples.

Results

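The common gamma chain genes form a small receptor, ligand and signalling set on the immunology probe panel. The set was chosen by gene name, and holds the receptor genes Il7r, Il2rg and Il21r, the ligand genes Il15 and Il21, the kinase gene Jak3 and the transcription factor genes Stat5a and Stat5b. All 8 were on the panel of 561 genes, each read by 1 probe, and all 8 passed the filter on low counts that left 470 genes for testing. To pass, a gene needed counts above the background limit (2 SD over the mean of the negative-control probes) in 3 or more libraries of 9.

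The libraries were made from epithelial cells of the ileum, taken at postnatal day 23 from male mice of the NOD strain, a model in which autoimmune diabetes arises without induction. The 3 groups had 3 libraries each: mice labelled with 1PAT antibiotics, mice given cecal material, and control mice. By the title of the series the transfer was meant to undo effects of antibiotics, but prior antibiotic exposure of the transfer mice is not given in the labels. The labels name neither the drug nor a dose, and no control procedure. Nothing in the labels says that libraries of a group came from separate mice, and a p-value here therefore reflects library-to-library spread that may be technical in part.

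The common gamma chain, encoded by Il2rg, is the receptor subunit shared by the receptors for IL-2, IL-4, IL-7, IL-9, IL-15 and IL-21. It binds the kinase JAK3, while the partner chain mostly binds JAK1, and both kinases activate STAT factors, above all STAT5 after IL-2, IL-7 and IL-15. In the intestine, epithelial cells are a source of IL-7 and of IL-15 presented on IL-15 receptor alpha. Intraepithelial lymphocytes and innate lymphoid cells depend on these cytokines for survival.

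The 9 libraries held between 323129 counts (antibiotic replicate 2) and 747434 counts (transfer replicate 2), and the background limit lay between 7.74 and 17.7 counts. The labelled epithelial identity was checked against marker genes. Pigr, Ccl25, Il18 and Itln1 lay above the limit in 9 of 9 libraries, Defb1 in 3 of 9 and Muc1 in none, while Cdh1 and Epcam were not on the panel. Lymphocyte RNA was present as well, with Cd3e, a chain of the T cell receptor complex, between 3523 and 23379 CPM. The summed level of the 14 T cell markers ran from 60565 to 67199 CPM in antibiotic libraries and from 53478 to 94780 CPM in transfer libraries, against 12416 to 53227 CPM in control libraries. Cd7 (7245 to 58233 CPM) and Cd3e weighed most in this sum. Cd5 lay above the limit in 8 of 9 libraries, Zap70 in 5 and Cd6 in 3, and the other T cell markers in 9 of 9. The 9 B cell markers summed to 7671 to 9678 CPM in antibiotic libraries and 6009 to 10609 CPM in transfer libraries, against 2052 to 5751 CPM in control libraries, and 8 of the 9 lay above the limit in 9 of 9 libraries. The 6 NK and innate lymphoid markers summed to 4198 to 6247 CPM in antibiotic libraries and 4223 to 5989 CPM in transfer libraries, against 1208 to 2596 CPM in control libraries. Klrd1 (525 to 4508 CPM) weighed most in this sum. Of these 6, 4 were higher and 2 lower in antibiotic than in control libraries, and 5 higher and 1 lower in transfer libraries. Of the 9 B cell markers, 8 were higher and 1 lower in each comparison with control. Scaled by the spike-in probes instead, 0 markers of either list were higher in antibiotic than in control libraries. The sum of the 8 tested macrophage and dendritic cell markers was instead lower in antibiotic and transfer libraries than in control libraries. It was 1062 to 1382 CPM in antibiotic libraries and 1118 to 1506 CPM in transfer libraries, against 2215 to 2907 CPM in control libraries. Of these 8, 3 were higher and 5 lower in each comparison with control. Cd14 (577 to 2346 CPM) weighed most in the sum. Csf1r, Emr1, Cx3cr1, C1qa and C1qb lay above the limit in only 3 to 5 of 9 libraries. The mean log2 CPM of the 8 markers overlapped between groups. It was 5.61 to 6.13 in antibiotic, 5.83 to 6.16 in transfer and 5.80 to 6.70 in control libraries. The 3 tested endothelium and stroma markers summed to 433 to 737, 535 to 812 and 240 to 513 CPM in antibiotic, transfer and control libraries. Control replicate 3 stood apart, with the lowest T cell and B cell sums and a correlation with control replicate 1 of 0.888, the lowest within any group. Results are therefore also given without it. Control libraries were read in lanes 1 to 3, antibiotic libraries in lanes 4 to 6 and transfer libraries in lanes 7 to 9, so lane order and group cannot be told apart. Levels are in CPM, counts scaled to a common library size over the tested genes with TMM factors, and are compared between libraries for 1 gene, not between genes.

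The promoters of Il7r and Il2rg are shown because these were the members whose levels moved most alike over the libraries. Entries in the RefSeq promoter table (GRCm38.p6) were found for 7 of the 8 members. Each sequence holds the 250 bases before the transcription start, 5′ to 3′ in the direction of transcription, and both genes lie on the minus strand, Il7r at chr15:9529877-9530126 and Il2rg at chrX:101268256-101268505. Capitals mark the core GGAAG of ETS factor motifs, on either strand, and the spaced STAT motif TTCNNNGAA, which reads the same on both strands.
Il7r: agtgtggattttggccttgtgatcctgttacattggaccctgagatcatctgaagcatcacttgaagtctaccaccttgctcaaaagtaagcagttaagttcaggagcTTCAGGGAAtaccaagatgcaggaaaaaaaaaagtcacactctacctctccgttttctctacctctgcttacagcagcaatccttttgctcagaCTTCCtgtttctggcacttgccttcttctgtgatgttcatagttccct
Il2rg: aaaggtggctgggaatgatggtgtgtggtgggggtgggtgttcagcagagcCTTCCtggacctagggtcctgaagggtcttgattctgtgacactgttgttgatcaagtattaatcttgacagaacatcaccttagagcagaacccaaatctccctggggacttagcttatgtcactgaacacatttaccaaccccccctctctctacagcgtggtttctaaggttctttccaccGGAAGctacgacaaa
The Il7r window held 1 ETS core, 48 bases before the start, and 1 STAT motif 142 bases before it, and these did not overlap. The Il2rg window held 2 ETS cores, 199 and 15 bases before the start, and no STAT motif. An ETS core is common, being present in 64.1% of 32851 mouse promoter windows of this length, while 7.02% of them held the STAT motif. Windows of the other matched members held no STAT motif, and ETS cores were found for Stat5a and Stat5b but not for Il21r, Il21 or Jak3. A match of letters is a description and shows no binding.

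Il7r encodes the IL-7 receptor alpha chain, which is used by IL-7 and, with Crlf2, by TSLP. In both comparisons with control it had the largest log2 fold change of the 8 genes. Its level was 911, 559 and 551 CPM in antibiotic libraries and 708, 424 and 631 CPM in transfer libraries, against 326, 181 and 75.0 CPM in control libraries. Every antibiotic and every transfer library lay above every control library, and the antibiotic and transfer libraries overlapped. The raw counts behind these levels ran from 151 to 473 in antibiotic libraries and from 272 to 423 in transfer libraries, against 39 to 150 in control libraries, all at least 4.87 times the background limit. Means were 673 ± 206 CPM in antibiotic libraries and 588 ± 147 CPM in transfer libraries, against 194 ± 126 CPM in control libraries (SD, n = 3 each).

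Between antibiotic and control libraries, Il7r was 3.48-fold higher, a log2 fold change of 1.80 ± 0.49 (SE; 95% interval 0.74 to 2.86). By the edgeR quasi-likelihood test it ranked 14 of 470 genes, with a Benjamini-Hochberg adjusted p = 0.080, and did not pass the threshold of 0.05. The call depended on the tool, since DESeq2 gave 1.79 with an adjusted p = 0.00692, while limma-voom gave an adjusted p = 0.060. Without control replicate 3 the edgeR value was 1.38 (adjusted p = 0.112), and without control replicate 1 it was 2.39 (adjusted p = 0.0356). Scaled by the spike-in probes instead, the sign turned to -0.58, in a setting where the median of all genes was -1.92. In bulk RNA, fewer cells of a type and less RNA per cell cannot be told apart, here or below.

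For transfer against control libraries the Il7r log2 fold change was 1.60 ± 0.49 (SE; 95% interval 0.55 to 2.65), or 3.03-fold higher, with an edgeR adjusted p = 0.185. DESeq2 gave 1.61 with an adjusted p = 0.0248, and without control replicate 3 the edgeR value was 1.18 (adjusted p = 0.319). The transfer minus antibiotic difference was -0.20 ± 0.47 on the log2 scale (95% interval -1.22 to 0.82), an interval that leaves room for a difference in either direction. These comparisons share libraries, the control libraries between the comparisons with control and the antibiotic libraries between those with antibiotic, and are given side by side only.

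**Figure D1:**
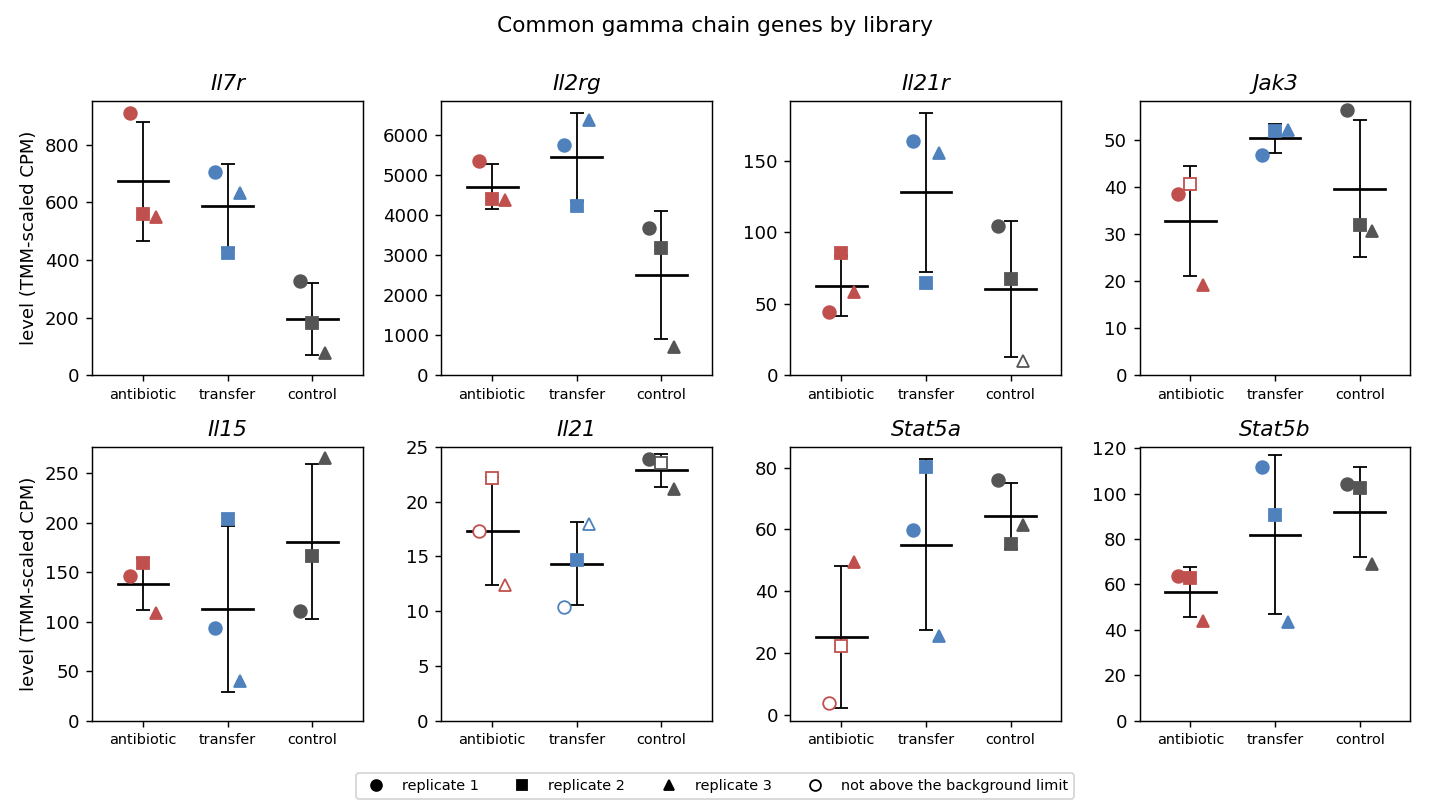
Level of each of the 8 genes in each library, in TMM-scaled CPM on a linear axis of its own per gene, for the antibiotic, transfer and control groups (3 libraries each). Horizontal lines are group means, bars the SD, and open symbols counts not above the background limit. All antibiotic and transfer libraries lie above all control libraries for Il7r and Il2rg, and control replicate 3 is the lowest for Il7r, Il2rg and Il21r.

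Il2rg, the shared chain itself, was abundant in most libraries. It had 5354, 4387 and 4378 CPM in antibiotic libraries and 5747, 4226 and 6371 CPM in transfer libraries, against 3662, 3161 and 688 CPM in control libraries. Antibiotic and transfer libraries again lay above all control libraries, and control replicate 3 was far below the other control libraries. The means were 4706 ± 561 CPM in antibiotic libraries and 5448 ± 1103 CPM in transfer libraries, against 2504 ± 1592 CPM in control libraries (SD, n = 3 each). Antibiotic against control gave a log2 fold change of 0.91 ± 0.47 (SE; 95% interval -0.11 to 1.93; edgeR adjusted p = 0.268), and 0.42 without control replicate 3. Transfer against control gave 1.12 ± 0.48 (SE; 95% interval 0.095 to 2.15; edgeR adjusted p = 0.209), and 0.64 without control replicate 3. The value of transfer against antibiotic was 0.21 ± 0.47. Under spike-in scaling the antibiotic against control value turned to -1.42, again above the median of all genes in that setting.

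Il21r encodes the IL-21 receptor, which pairs with the common gamma chain on B, T and NK cells. Its level was 44.3, 85.1 and 57.8 CPM in antibiotic libraries and 164, 64.1 and 155 CPM in transfer libraries, against 104, 67.1 and 9.61 CPM in control libraries. The groups overlapped in every comparison, with transfer replicates 1 and 3 the highest, and the 5 counts of control replicate 3 were not above the background limit. Antibiotic against control gave 0.03 ± 0.68 (edgeR adjusted p = 0.981), and its sign held in 12 of 18 alternative settings. Among the settings that turned it were leaving out control replicate 3 (-0.53), spike-in scaling (-2.46) and upper-quartile scaling (-0.13). Transfer against antibiotic gave 1.05 ± 0.67 (adjusted p = 0.993) and transfer against control 1.08 ± 0.67 (adjusted p = 0.313), the last of which was 0.53 without control replicate 3.

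Among the ligands, Il15 encodes the cytokine that epithelial cells hand to lymphocytes in the gut. It had 146, 159 and 109 CPM in antibiotic libraries and 93.7, 204 and 40.3 CPM in transfer libraries, against 111, 166 and 265 CPM in control libraries. No group stood apart, and the transfer libraries spanned the widest range. The 5 tested epithelial markers summed to 72900 to 109223 CPM in antibiotic libraries and 47580 to 100976 CPM in transfer libraries, against 83180 to 114514 CPM in control libraries, and their part in the Il15 level was tested only by the difference given below. The log2 fold change was -0.40 ± 0.55 for antibiotic against control (edgeR adjusted p = 0.698) and -0.67 ± 0.55 for transfer against control (adjusted p = 0.438). Control replicate 3 held the highest Il15 level, and the values without it were -0.07 for antibiotic against control and -0.35 for transfer against control. For transfer against antibiotic, Il15 gave -0.28 ± 0.55, with the sign turned by spike-in scaling (1.77) and by leaving out transfer replicate 3 (0.11).

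Il21, a cytokine made mainly by helper T cells, was near background. Its counts were 9, 6 and 9 in antibiotic libraries, 4, 11 and 12 in transfer libraries and 11, 14 and 11 in control libraries. It was above the limit in 0 of 3 antibiotic, 1 of 3 transfer and 2 of 3 control libraries. Its fitted values rest on counts near background, appear only in the plot of fold changes, the medians over the members and the alternatives, and are not read here.

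Jak3, the kinase that binds the common gamma chain, was measured at low counts. It had 38.5, 40.7 and 19.3 CPM in antibiotic libraries and 46.8, 52.1 and 52.2 CPM in transfer libraries, against 56.5, 31.9 and 30.8 CPM in control libraries. The transfer libraries all lay above the antibiotic libraries, while both overlapped the control libraries, and antibiotic replicate 2, with 11 counts, was not above its limit. The log2 fold change of transfer against antibiotic was 0.65 ± 0.51 (edgeR adjusted p = 0.993). Antibiotic against control gave -0.30 ± 0.51 (adjusted p = 0.745), and 0.04 without control replicate 1. Transfer against control gave 0.35 ± 0.50 (adjusted p = 0.657).

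Stat5a and Stat5b encode the closely related factors that act after IL-2, IL-7 and IL-15, and are neighbours on chromosome 11 in opposite directions. Stat5a had 3.85, 22.2 and 49.6 CPM in antibiotic libraries and 59.8, 80.1 and 25.4 CPM in transfer libraries, against 76.0, 55.4 and 61.5 CPM in control libraries. Every antibiotic library lay below every control library, but only antibiotic replicate 3, with 36 counts, was above its limit, where the other antibiotic libraries had 2 and 6 counts. The log2 fold change of antibiotic against control was -1.30 ± 0.70 (SE; 95% interval -2.81 to 0.22; edgeR adjusted p = 0.286), and ranged from -2.46 without antibiotic replicate 3 to -0.78 without antibiotic replicate 1. Stat5b had 63.5, 62.9 and 44.0 CPM in antibiotic libraries and 112, 90.8 and 43.3 CPM in transfer libraries, against 104, 102 and 69.2 CPM in control libraries. It too was lower in all antibiotic libraries than in all control libraries, with -0.70 ± 0.47 (edgeR adjusted p = 0.406). The transfer libraries overlapped both other groups. Transfer against antibiotic gave 1.08 ± 0.70 for Stat5a and 0.53 ± 0.47 for Stat5b (adjusted p = 0.993 for both), and transfer against control -0.22 ± 0.67 and -0.17 ± 0.46 in the same order. The signs of the last pair turned under housekeeping scaling, to 0.11 for Stat5a and 0.20 for Stat5b.

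Read against all tested genes, the members gave no call that passed the threshold. The edgeR adjusted p was under 0.05 for 0 of 8 members in each of the 3 comparisons, and for 0% of all 470 genes in each. DESeq2 called 51 genes for antibiotic against control, 40 for transfer against control and 0 for transfer against antibiotic, with Il7r as the member among them in each of the first 2. At an unadjusted p under 0.05, members numbered 1 of 8 for antibiotic against control, where 21.7% of all genes passed, 0 of 8 for transfer against antibiotic, where 2.55% passed, and 2 of 8 for transfer against control, where 22.3% passed. Groups did not overlap, with the first group higher, for 2 of 8 members in antibiotic against control (Il7r and Il2rg; 18.1% of all genes), for 1 in transfer against antibiotic (Jak3; 3.62%), and for 2 in transfer against control (Il7r and Il2rg; 15.7%). The first group was lower without overlap for 2 members in antibiotic against control (Stat5a and Stat5b; 10.9% of all genes), for 0 in transfer against antibiotic (3.83%), and for 1 in transfer against control (Il21, near background; 10.6%). With 8 members, counts of 1 or 2 are too few to be told apart from these shares. The median log2 fold change of the 8 members was -0.35, 0.37 and 0.09 for antibiotic against control, transfer against antibiotic and transfer against control, beside 0.03, -0.02 and 0.08 over all genes.

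**Figure D2:**
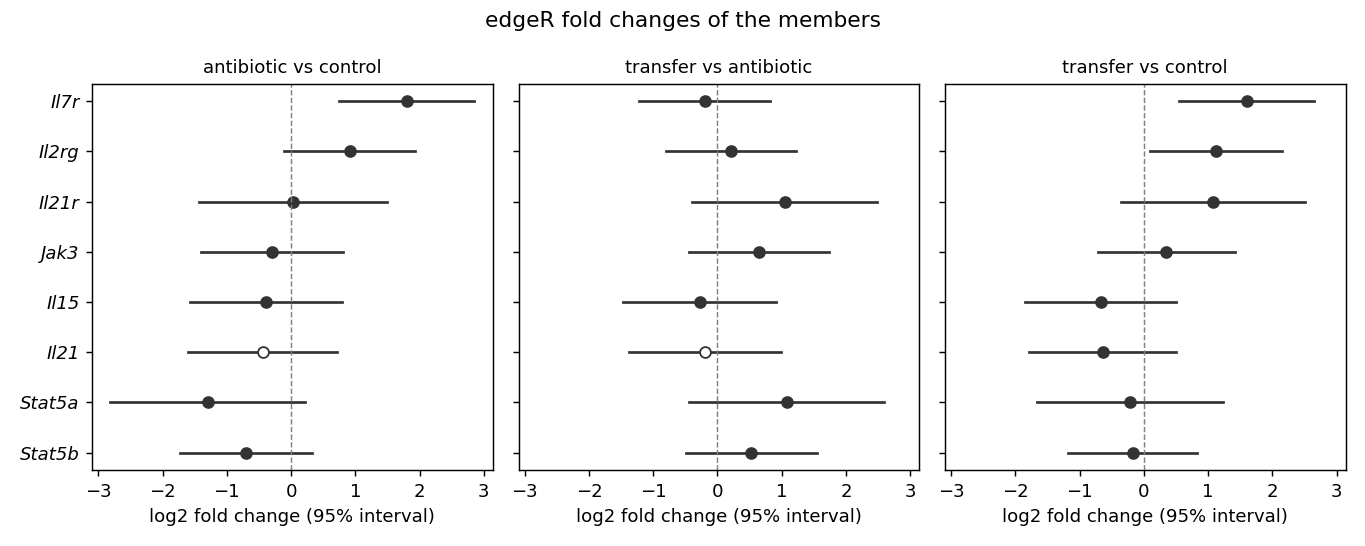
edgeR log2 fold changes of the 8 genes with 95% intervals, for antibiotic against control, transfer against antibiotic and transfer against control. Open symbols mark a gene with no library above the background limit in 1 of the groups compared. The intervals of Il7r lie above 0 in both comparisons with control, and that of Il2rg lies above 0 in transfer against control, though spike-in scaling turns the antibiotic against control values of Il7r, Il2rg and Il21r below 0, upper-quartile scaling turns that of Il21r below 0, spike-in scaling turns the transfer against antibiotic values of Il7r, Il15 and Il21 above 0, and housekeeping scaling turns the transfer against control values of Stat5a and Stat5b above 0.

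Lymphocyte markers moved with Il7r and Il2rg, so their levels were also set against markers within each library, a difference that does not move with the scaling factor. Of the 14 T cell markers, 12 were higher in antibiotic than in control libraries (median log2 fold change 0.79), though 0 were under spike-in scaling (median -1.26), and 14 were higher in transfer than in control libraries (median 1.11). Without control replicate 3 the medians were 0.38 for antibiotic against control and 0.78 for transfer against control. Il7r minus the mean of the T cell markers, in log2 CPM, was 1.02, 0.59 and 0.18 in antibiotic libraries and 0.06, 0.25 and -0.14 in transfer libraries, against -0.22, -0.62 and -0.58 in control libraries. All antibiotic and all transfer libraries lay above all control libraries. The difference of antibiotic and control means was 1.07 (exact two-sided permutation p = 0.1, adjusted p = 0.25 over the 5 genes set against markers), and that of transfer and control means 0.53 (exact p = 0.1, adjusted p = 0.5), where 0.1 is the smallest p that 3 against 3 libraries can give. Both differences held their sign without control replicate 3, at 1.02 and 0.48. The part of lymphocyte content in the Il7r level was not tested beyond these differences.

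Il2rg did not stand apart in this way. Its difference from the T cell markers overlapped between the groups, at 0.34 between antibiotic and control means (exact p = 0.4) and 0.18 between transfer and control means (exact p = 0.7). Without control replicate 3 these differences were 0.066 and -0.092, so the second turned sign. Jak3 was lower relative to the T cell markers in all antibiotic libraries than in all control libraries, by a mean difference of -1.15 (exact p = 0.1, adjusted p = 0.25), with an overlap between transfer and control libraries (-0.88, exact p = 0.2). For Jak3 the values without control replicate 3 were -0.80 for antibiotic minus control and -0.53 for transfer minus control, and the antibiotic minus control value without antibiotic replicate 3 was -0.76. Il21r relative to the T cell markers differed by -0.44 for antibiotic minus control (exact p = 0.4) and by 0.14 for transfer minus control (exact p = 1). These became -0.85 and -0.27 without control replicate 3, where Il21r was not above the background limit, so the transfer value turned sign. Il15, set against the 5 epithelial markers that were tested, differed by -0.02 for antibiotic minus control and by -0.14 for transfer minus control (exact p = 0.9 for both). Both signs turned without control replicate 3, to 0.19 and 0.072, and the transfer value also turned, to 0.30, without transfer replicate 3.

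**Figure D3:**
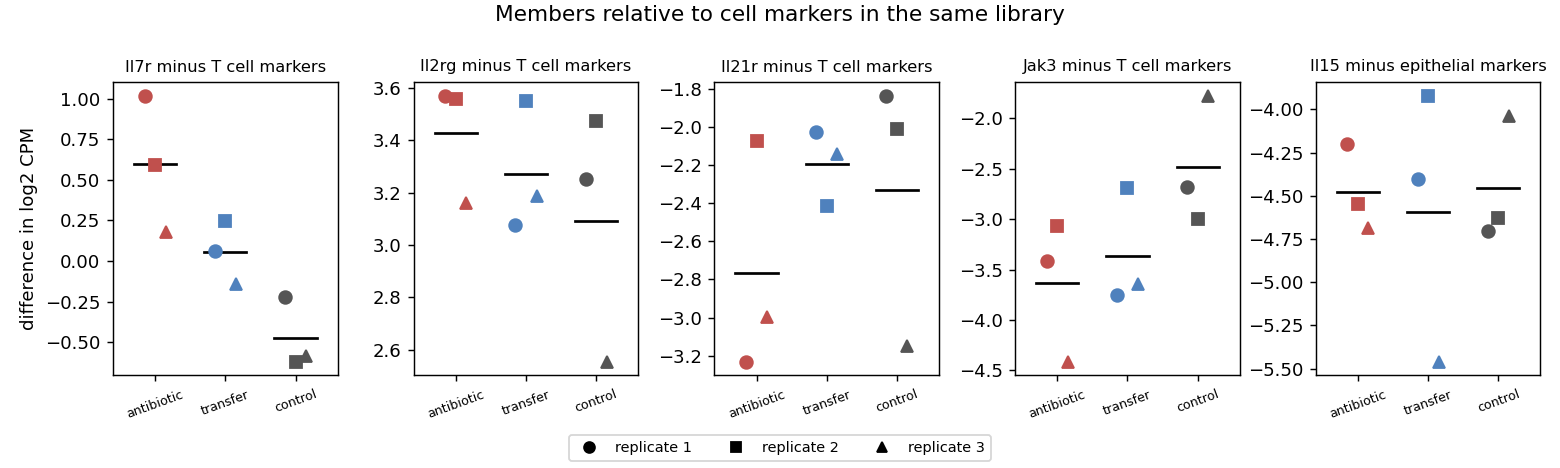
Log2 CPM of Il7r, Il2rg, Il21r and Jak3 minus the mean of the T cell markers, and of Il15 minus the mean of the epithelial markers, in each library, with the group mean as a line. Il7r lies between -0.14 and 1.02 in antibiotic and transfer libraries, against -0.62 to -0.22 in control libraries, while Il2rg, Il21r and Il15 overlap between all groups.

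The rest of the pathway was read from a list of 27 partner genes, of which 22 were on the panel and 17 were tested. Il2, Il9, Tslp, Socs1 and Foxp3 did not pass the filter on low counts, and Il2 and Il9 lay above the limit in 0 of 9 libraries. For antibiotic against control 7 partners were higher and 10 lower (median -0.31), with 5 of 17 at an unadjusted p under 0.05, beside 21.7% of all genes, and 0 past the adjusted threshold. For transfer against antibiotic 8 were higher and 9 lower (median -0.02), with 0 of 17 at an unadjusted p under 0.05, beside 2.55% of all genes. Transfer against control also gave 8 higher and 9 lower (median -0.12), with 4 of 17 at an unadjusted p under 0.05, beside 22.3% of all genes, and 0 past the adjusted threshold.

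Of the partner ligands, Il7 encodes the cytokine that Il7r receives. Its level was 48.1, 59.2 and 30.3 CPM in antibiotic libraries and 33.8, 60.1 and 31.3 CPM in transfer libraries, against 43.4, 67.1 and 131 CPM in control libraries. The groups overlapped, with the highest value in control replicate 3, and the log2 fold change was -0.84 ± 0.54 for antibiotic against control (edgeR adjusted p = 0.375) and -0.93 ± 0.54 for transfer against control (adjusted p = 0.285), or -0.36 and -0.44 without that library. Il4, a cytokine of helper T cells of type 2, averaged 57.5 ± 40.3 CPM in antibiotic libraries and 57.1 ± 12.2 CPM in transfer libraries, against 23.3 ± 15.6 CPM in control libraries (SD, n = 3 each), where 1 of 3 was above the limit. Its log2 fold change was 1.27 ± 0.63 for antibiotic against control (edgeR adjusted p = 0.251; -1.29 under spike-in scaling) and 1.30 ± 0.62 for transfer against control (adjusted p = 0.214). The antibiotic against control value was 0.58 without antibiotic replicate 2, which held 104 CPM, and 1.94 without control replicate 1, and that of transfer against control was 1.97 without control replicate 1.

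Among the receptor chains, Il2ra, the IL-2 receptor alpha chain of regulatory and activated T cells, had the largest antibiotic against control value of the partners. It had 358, 340 and 134 CPM in antibiotic libraries and 80.7, 182 and 231 CPM in transfer libraries, against 30.4, 101 and 61.5 CPM in control libraries. All antibiotic libraries lay above all control libraries, and the transfer libraries overlapped both. Its log2 fold change was 2.09 ± 0.57 for antibiotic against control (edgeR adjusted p = 0.080; DESeq2 adjusted p = 0.00768) and 1.35 ± 0.56 for transfer against control (edgeR adjusted p = 0.208). Under spike-in scaling the antibiotic against control value was -0.0036, above the median of all genes there. Il2rb, the beta chain of the IL-2 and IL-15 receptors, averaged 132 ± 39.2 CPM in antibiotic libraries and 180 ± 43.0 CPM in transfer libraries, against 164 ± 9.24 CPM in control libraries, with log2 fold changes of -0.32 for antibiotic against control and 0.14 for transfer against control.

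Il4ra, Il15ra and Crlf2 had lower means in antibiotic and transfer libraries than in control libraries, in none of the 3 past the adjusted threshold. Il4ra, the IL-4 receptor alpha chain, had 572, 658 and 325 CPM in antibiotic libraries and 349, 666 and 310.5 CPM in transfer libraries, against 682, 743 and 1290 CPM in control libraries, and neither group overlapped control. Its log2 fold change was -0.81 ± 0.43 for antibiotic against control (edgeR adjusted p = 0.271) and -1.03 ± 0.43 for transfer against control (adjusted p = 0.208). Il15ra, which presents IL-15, averaged 219 ± 61.6 CPM in antibiotic libraries and 177 ± 29.6 CPM in transfer libraries, against 312 ± 120 CPM in control libraries. It gave -0.51 ± 0.40 for antibiotic against control (adjusted p = 0.488) and -0.81 ± 0.40 for transfer against control (adjusted p = 0.225), in the second case without overlap. Crlf2, the TSLP receptor chain that pairs with Il7r, averaged 36.7 ± 21.9 CPM in antibiotic libraries and 56.1 ± 18.0 CPM in transfer libraries, against 97.8 ± 43.9 CPM in control libraries. Its antibiotic and control libraries did not overlap, at -1.43 ± 0.59 (edgeR adjusted p = 0.179). Without control replicate 3, the highest library for all 3 genes, the antibiotic against control values were -0.52 for Il4ra, -0.21 for Il15ra and -1.05 for Crlf2, and the transfer against control value of Il15ra was -0.49.

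The kinase Jak1 gave 0.55 ± 0.53 for antibiotic against control (edgeR adjusted p = 0.591; -1.01 under spike-in scaling) and 0.42 ± 0.53 for transfer against control (adjusted p = 0.624). Control replicate 1 held 243 CPM of Jak1, against 1708 and 1431 CPM in the other control libraries, and without it the values were 0.071 and -0.052. Of the other STAT factors, Stat3, which acts after IL-21 and many other cytokines, had 608, 925 and 446 CPM in antibiotic libraries and 783, 1251 and 705 CPM in transfer libraries, against 1603, 1473 and 1729 CPM in control libraries. Neither the antibiotic nor the transfer libraries reached the lowest control library. The log2 fold change was -1.28 ± 0.37 for antibiotic against control (edgeR adjusted p = 0.080; DESeq2 adjusted p = 0.00855) and -0.81 ± 0.36 for transfer against control (adjusted p = 0.214). Stat6 gave -0.31 for antibiotic against control and -0.41 for transfer against control, with ranges of -0.88 to -0.073 and -0.81 to -0.22 when each library was left out.

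Target and feedback genes did not all go one way. Bcl6, a transcriptional repressor that STAT5 is known to hold down, had 1076, 806 and 783 CPM in antibiotic libraries and 546, 637 and 831 CPM in transfer libraries, against 437, 403 and 323 CPM in control libraries. Antibiotic and transfer libraries all lay above control libraries, with 1.20 ± 0.33 for antibiotic against control (edgeR adjusted p = 0.080; DESeq2 adjusted p = 0.0175; -0.89 under spike-in scaling) and 0.79 ± 0.33 for transfer against control (adjusted p = 0.208). Bcl2, a survival gene of lymphocytes, averaged 498 ± 132 CPM in antibiotic libraries and 505 ± 124 CPM in transfer libraries, against 264 ± 152 CPM in control libraries, with 0.91 ± 0.48 (adjusted p = 0.268; -1.45 under spike-in scaling) and 0.93 ± 0.48 (adjusted p = 0.234) in the 2 comparisons with control, and 0.45 and 0.49 without control replicate 3. Socs3, a feedback inhibitor of cytokine receptors, averaged 50.2 ± 33.9 CPM in antibiotic libraries and 68.2 ± 45.0 CPM in transfer libraries, against 148 ± 93.1 CPM in control libraries, with -1.50 ± 0.68 for antibiotic against control (edgeR adjusted p = 0.212), and -0.93 without control replicate 3, its highest library.

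**Figure D4:**
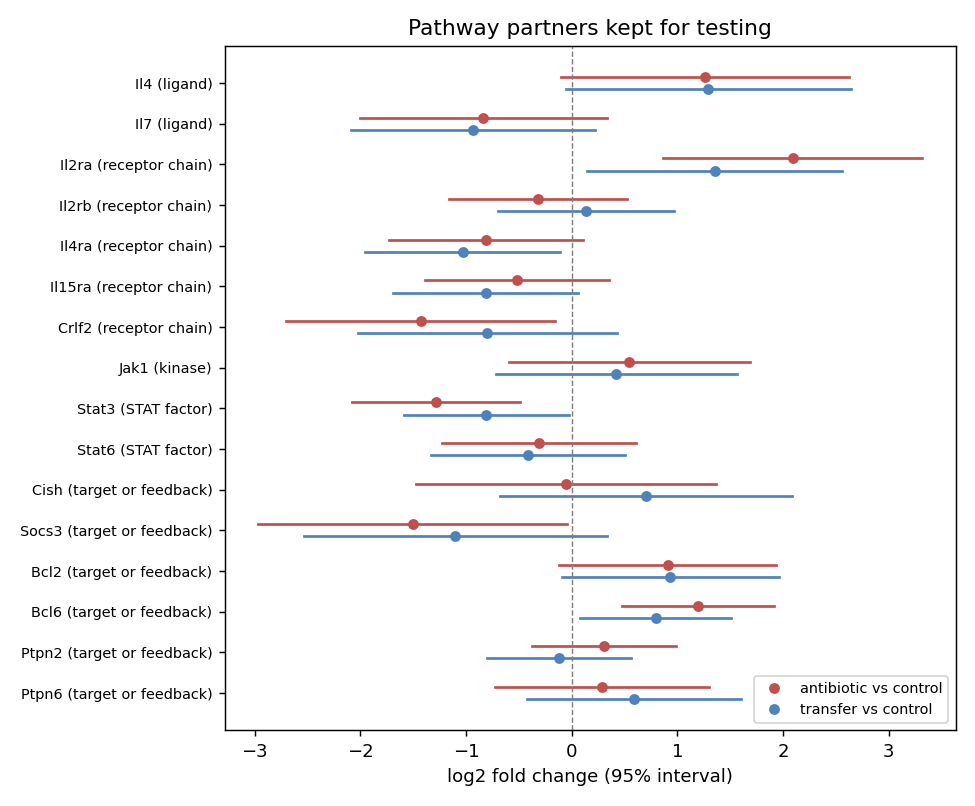
edgeR log2 fold changes with 95% intervals of 16 of the tested partner genes, by role, for antibiotic against control and transfer against control. Il2ra and Bcl6 lie to the right of 0 in both comparisons and Stat3 to the left of 0 (spike-in scaling turns the antibiotic against control values of Il4, Il2ra, Jak1, Bcl2, Bcl6, Ptpn2 and Ptpn6 below 0, housekeeping scaling that of Cish above 0, and both scalings the transfer against control value of Ptpn2 above 0), and none of the 16 passed the adjusted threshold, and both comparisons use the same control libraries.

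Across the 9 libraries, the genes most like each member in log2 CPM were read as a description, since all points share libraries that differ in lymphocyte marker levels. Il7r was most like Slamf7 (Pearson r = 0.988), the B cell gene Ms4a1 (0.986) and Cd160 (0.983), and these stayed at 0.963 or above over the 8 libraries without control replicate 3. Il2rg was most like Ccr9, a gut-homing receptor of lymphocytes (0.995), Cd48 (0.995) and Arhgdib (0.994). Il21r was most like Thy1 (0.982), Ptpn6 (0.956) and Tnfsf8 (0.953). Il15 was most like the interferon-induced gene Mx1 (0.909), Gp1bb (0.908) and Ltbr (0.904). Jak3 had no close match, its highest being Npc1 at 0.646, Cd5 at 0.628 and Il22 at 0.621. Stat5a was most like Sigirr (0.955), Polr1b (0.877) and Crlf2 (0.870), and Stat5b most like Il3 (0.898), C1qa (0.871) and Nfkbia (0.834). Stat5a was above the limit in 1 of 3 antibiotic libraries, and its rank correlation with Sigirr was lower (Spearman rho = 0.733). C1qa was above the limit in 4 of 9 libraries.

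Among the members themselves, Il7r and Il2rg had r = 0.924 over the 9 libraries and 0.875 without control replicate 3. The value for Il7r and Il21r was 0.689 over the 9 libraries but 0.0876 without control replicate 3, so it rested on that library. Stat5a and Stat5b had r = 0.466. Against the mean of the marker lists, Il7r had r = 0.903 with T cells, 0.950 with B cells, 0.941 with NK and innate lymphoid cells and -0.737 with epithelium. Without control replicate 3 these were 0.720, 0.860, 0.933 and -0.652. Il2rg had 0.952 with T cells, 0.957 with B cells and 0.995 with the NK and innate lymphoid markers. Without that library these were 0.907, 0.882 and 0.959. With endothelium and stroma, Il7r had 0.771 and Il2rg 0.872, or 0.350 and 0.529 without control replicate 3. Il15 ran the other way, with 0.849 for epithelium and -0.812 for T cells, or 0.799 and -0.816 without control replicate 3.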

How the data were processed

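Deposited counts were whole numbers per probe from nCounter imaging without amplification, unnormalised, per the file headers, for 547 endogenous genes, 14 housekeeping genes, 8 negative controls and 6 positive spike-in controls. Per the labels' protocols, TRIzol and a cleanup column gave the RNA; the counting software is not given in the sources used here. The deposited signal table equalled those counts times 1 factor per library (0.734 to 1.82), as found from the values, and served as an alternative. This factor times the mean housekeeping count was 7047 in every library, so the signal is scaled to the housekeeping genes.

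Groups came from the sample descriptions, all marked batch 1. Tests used edgeR 4.0.16 in R 4.3.3 on the deposited counts: TMM scaling (0.837 to 1.10), a single quasi-likelihood fit over the 9 libraries on group alone (6 residual degrees of freedom), and Benjamini-Hochberg adjustment over 470 genes. Marker-relative values are log2 CPM with a prior count of 2, compared by exact permutation. On simulated data, the slope of fitted on set log2 fold changes was checked. Rates of recovery are not given here, so the absence of edgeR calls does not show an absence of change. Members and gene lists were chosen with earlier results of these data known. Named genes were the members, the partner ligands, receptor chains, Jak1 and STAT factors on the panel, the 3 target genes with the smallest p for antibiotic against control, and the 3 genes most correlated with each member, of which some are not reported here. Alternatives were DESeq2 1.42.0, limma 3.58.1 (voom, and the signal on log2 with pseudocounts 1 and 10), other scalings, no filter, a replicate block and leaving out each library. No pair of libraries of the same group agreed within sampling noise (least chi-square per degree of freedom 6.75).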

Additional observations from a re-analysis of the deposited data

How the results depend on the processing

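No member passed the adjusted threshold with edgeR, while DESeq2 called 1 member, Il7r, for antibiotic against control and 1, again Il7r, for transfer against control. Leaving out 1 library at a time gave 0 to 1 members for antibiotic against control, with the 1, Il7r, found without control replicate 1. Over all genes, edgeR called 0 for antibiotic against control, against 51 with DESeq2, 5 with limma-voom, 12 with upper-quartile scaling, 2 with spike-in scaling, 1 on the deposited signal with pseudocount 10, and 0 to 23 with 1 library left out. For transfer against control it called 0, against 40 with DESeq2 and 0 to 2 with 1 library left out. Spike-in scaling shifted the median of all genes to -1.92 for antibiotic against control and turned Il7r (-0.58), Il2rg (-1.42) and Il21r (-2.46), and upper-quartile scaling turned Il21r (-0.13). In that comparison the sign of Il21r held in 12 of 18 alternatives. For transfer against antibiotic, spike-in scaling moved the median of all genes to 2.03 and turned Il7r (1.99), Il15 (1.77) and Il21 (1.87). For transfer against control, Stat5a and Stat5b turned to 0.11 and 0.20 with housekeeping scaling (median of all genes 0.46), to 0.036 and 0.15 on the deposited signal with pseudocount 1, and to 0.047 and 0.13 with pseudocount 10. The deposited signal is also scaled to the housekeeping genes, so these settings are not independent of each other. The cause of the turned signs was not tested. With 1 library left out, ranges that crossed 0 were, for antibiotic against control, Il21r -0.53 to 0.66 and Jak3 -0.50 to 0.036, for transfer against antibiotic, Il7r -0.32 to 0.083 (above 0 without antibiotic replicate 1) and Il15 -1.06 to 0.11, and for transfer against control, Stat5a -0.62 to 0.059 and Stat5b -0.47 to 0.055 (both above 0 without transfer replicate 3). For the partners, whose alternatives were added after seeing the data, spike-in scaling turned the antibiotic against control values of Il4 (-1.29), Il2ra (-0.0036), Jak1 (-1.01), Bcl6 (-0.89), Bcl2 (-1.45), Ptpn2 (-1.67) and Ptpn6 (-2.07), housekeeping scaling turned that of Cish (0.14), both turned the transfer against control value of Ptpn2 (0.28 with housekeeping and 0.027 with spike-in scaling), and with 1 library left out Jak1 ran from -0.052 to 0.85 and Il2rb from -0.067 to 0.27 for transfer against control. DESeq2 called Il2ra, Stat3 and Bcl6 for antibiotic against control, and upper-quartile scaling called Stat3. Correlations of same-numbered libraries, as deviations from group means, ran from -0.49 to 0.34. No strong pairing by number was seen, but with 3 libraries per group this cannot exclude a shared source. With the replicate block Il7r was 1.89 for antibiotic against control (adjusted p = 0.0922) and 1.75 for transfer against control (adjusted p = 0.193), and 0 members passed in each of the 3 comparisons. Il21, Jak3 and Stat5a lay near the background limit, where depth limits any comparison.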

Other observations

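Il7r was also set against other references within each library, chosen after seeing the data. Relative to the B cell markers it differed by 0.81 between antibiotic and control means and by 0.54 between transfer and control means, in log2 CPM. Relative to the NK and innate lymphoid markers the differences were 1.10 and 0.83, in the same order. In all 4 cases the groups did not overlap (exact permutation p = 0.1, the smallest possible). Relative to Il2rg alone it differed by 0.74 for antibiotic minus control (exact permutation p = 0.1) and by 0.35 for transfer minus control, where the groups overlapped (exact permutation p = 0.4). The overlap rested on control replicate 3. Without it the transfer minus control difference was 0.57 and all 3 transfer libraries lay above the 2 other control libraries.

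Tslp, an epithelial cytokine whose receptor pairs Crlf2 with Il7r, stayed under the filter on low counts. It averaged 5.82 ± 3.30 CPM in antibiotic libraries and 19.0 ± 6.10 CPM in transfer libraries, against 18.8 ± 8.17 CPM in control libraries (SD, n = 3 each), and lay above the background limit in 0 of 3 antibiotic, 1 of 3 transfer and 1 of 3 control libraries, so it was not tested.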
